A study of Mus musculus with 16 samples.

Results

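The receptors described here are the odorant receptor genes of mouse chromosome 2 whose symbols run from Olfr987 to Olfr1158. Members were chosen by symbol alone: every probe set whose platform symbol lies in that range of numbers, both ends included, was taken, with 1 row per gene. This gave 116 genes among 19505 named genes and among 1080 measured Olfr genes. All 116 Entrez identifiers were found in RefSeq (assembly GRCm38.p6), all on chromosome 2 and all protein coding, and the order of the numbers was the order of the genes with 0 exceptions. RefSeq lists 165 genes with symbols in this range, 118 of them coding and 47 pseudogenes, so the array measured nearly every coding member.

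RNA came from olfactory mucosa cells of S100a5-tauGFP mice on a C57BL/6 background, sorted by fluorescence and hybridised to Clariom S arrays. The reporter places GFP under the control of S100a5, a calcium-binding protein gene that active olfactory sensory neurons express. In all, 24 mice of both sexes, 7 to 12 weeks old, were kept for 40 hours in chambers flushed with clean air (3.1 L per minute). From hour 26 on, they received a pulse of 10 seconds every 20 minutes. The pulse held filtered air in the vehicle mice and isoamyl acetate, a banana-scented ester, in the odor mice. Cells of 3 mice were pooled before sorting, and both sorted fractions of each of the 8 pools were hybridised, one titled GFP+ and one GFP-. Treatment and title together make 4 groups of 4 libraries. All mice carried the reporter and were in the same kind of chamber. A replicate is a pool of 3 mice, and which sex went into which pool is not stated in the labels.

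Odorant receptors are seven-transmembrane proteins that couple to the olfactory G protein and raise cyclic AMP in the cilia of olfactory sensory neurons. A mature neuron expresses a single receptor gene from a single allele, so the RNA of a receptor in a mixture of neurons depends on how many neurons chose it and on how much RNA each holds. In bulk libraries fewer cells of a type and less RNA per cell cannot be told apart. The chromosome 2 array is a large cluster of class II receptors, the class found in land vertebrates, and most of its members have no known ligand. The assay asks which receptors belong to neurons that respond to an odor, since such neurons should gain GFP.

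The direction of the sort is not settled by the labels. For each of the 16 samples the title and the cell type field carry opposite GFP signs, and S100a5 itself was lower in the titled GFP+ library of 8 of 8 pools. The log2 sort difference of S100a5 was -1.18 in vehicle (SE 0.21, limma adjusted p = 0.000442) and -1.25 with odor (adjusted p = 0.000222). Libraries are called by their titles throughout. A sort difference subtracts the titled GFP- level from the titled GFP+ level on the log2 scale, where 1 is a change by a factor of 2. Other cells differed between the sorts too. All 7 measured markers of neutrophils and macrophages were called higher in titled GFP+ in both treatments, and their summed log2 level was 18.11 to 18.69 in vehicle titled GFP+ against 9.17 to 10.55 in vehicle titled GFP-. In the vehicle sort, 6 of 6 sustentacular, 5 of 5 microvillar, 4 of 4 progenitor, 6 of 9 immature neuron and 3 of 3 lymphocyte markers were also higher, and none was lower. Of 2 genes listed for respiratory cells, Scgb1c1 was higher. The other, Dnah5, was above its array's median negative control in 0 of 4 vehicle libraries titled GFP+ and 0 of 4 titled GFP-. These genes do not settle whether respiratory cells differed. The progenitor marker Neurog1 was above its array's median negative control in 0 of 16 libraries. Of 14 mature neuron markers 0 were higher and 2 were lower. The part of these cells in the receptor differences was not tested. Array medians were 6.79 to 6.90 in libraries titled GFP+ and 6.42 to 6.52 in libraries titled GFP-.

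A stretch of DNA upstream of 4 members shows what lies before genes that went opposite ways in the sort. Olfr1140 and Olfr1030 were higher in titled GFP+, and Olfr1093 and Olfr1037 were lower. They were chosen after their values were seen, among named members whose RefSeq gene model does not begin at the start codon. Each line gives the 250 bases before the RefSeq gene start in GRCm38.p6, 5′ to 3′ on the gene's strand, and capitals mark TAATTA, the core that homeodomain factors such as Lhx2 bind.
Olfr1140 (chr2:87745911-87746160, plus strand): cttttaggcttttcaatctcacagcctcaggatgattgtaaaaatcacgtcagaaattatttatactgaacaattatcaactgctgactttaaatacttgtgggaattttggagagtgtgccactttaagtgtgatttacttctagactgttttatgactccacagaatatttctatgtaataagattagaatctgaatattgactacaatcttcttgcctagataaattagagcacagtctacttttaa
Olfr1030 (chr2:85979062-85979311, plus strand): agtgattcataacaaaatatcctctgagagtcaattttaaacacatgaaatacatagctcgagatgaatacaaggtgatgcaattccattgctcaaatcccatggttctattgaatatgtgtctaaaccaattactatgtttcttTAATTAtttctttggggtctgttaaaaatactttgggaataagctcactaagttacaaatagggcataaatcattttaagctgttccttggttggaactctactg
Olfr1093 (chr2:86782295-86782544, plus strand): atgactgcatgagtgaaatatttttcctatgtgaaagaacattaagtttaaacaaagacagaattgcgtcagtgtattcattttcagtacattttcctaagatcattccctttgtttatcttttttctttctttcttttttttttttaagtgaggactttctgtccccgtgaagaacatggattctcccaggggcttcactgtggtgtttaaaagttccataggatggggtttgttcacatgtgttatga
Olfr1037 (chr2:86085855-86086104, minus strand): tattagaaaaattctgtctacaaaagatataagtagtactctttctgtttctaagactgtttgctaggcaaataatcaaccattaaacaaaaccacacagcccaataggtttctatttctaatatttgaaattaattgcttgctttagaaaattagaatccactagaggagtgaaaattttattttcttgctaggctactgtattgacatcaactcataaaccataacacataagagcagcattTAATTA

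Both directions are represented with and without the motif: TAATTA stands before Olfr1030 and Olfr1037 and not before Olfr1140 or Olfr1093. Windows from 250 bases before to 50 after the gene start were held for 91 members, 37 on the plus and 54 on the minus strand. TAATTA, which reads the same on both strands, was in 20 of them (22.0%), against 18.1% of the windows of all other Olfr genes and 5.29% of all RefSeq windows. It was in 1 of 11 windows of members called higher in titled GFP+ in vehicle, in 10 of 52 of those called lower and in 9 of 28 of those not called. The palindrome that Ebf factors bind was in 0 of the 91 member windows, 0.60% of other Olfr windows and 0.904% of all windows. In 65 of the 91 members the gene model begins at ATG, so its window lies before the coding sequence and not before a mapped transcription start.

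Most members gave signal above background. The background was the median of the negative control probe sets of the same array, which lay between 5.15 and 5.67. In vehicle, 88 of 116 members were above it in all 4 libraries titled GFP+ and 91 in all 4 titled GFP-, and with odor the counts were 86 and 90. Measured against the 95th percentile of the negative controls instead, the counts were 23, 38, 20 and 37. Olfr1023, Olfr1040, Olfr1053, Olfr1061, Olfr1141 and Olfr1145 were above the median negative control in 0 of 16 libraries. Where a member was above it in no library of a group, its fold is given as a bound. Other receptors may share sequence with a member's probes, and their part in the signal was not tested.

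In vehicle the cluster lay to the titled GFP- side. The median sort difference over the 116 members was -1.12, against -0.13 over all 22206 tested probe sets, -0.39 over the 964 other Olfr genes and -0.13 over Olfr1159 to Olfr1318, the 124 measured genes that continue the numbering. By limma, 79 members were called at an adjusted p below 0.05 (68.1%), 17 higher and 62 lower in titled GFP+, where 17.3% of all tested probe sets were called, 10.2% higher and 7.16% lower. Of the other Olfr genes 231 were called higher and 380 lower, and of Olfr1159 to Olfr1318 33 were higher and 40 lower. Of the 17 higher members 3 were above background in no vehicle library titled GFP-, and of the 62 lower members 5 in none titled GFP+, so their fitted differences are not measured on both sides. Members above background in both sorts differed by 1.83 to 7.29 where higher (14 members, median 3.80) and by -4.25 to -0.77 where lower (57 members, median -2.47). With dim members at their bound, or at 0 where the bound gives no fold, 6 members differed by more than 5 upward and 0 downward, and the median over all 116 members was -0.97.

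The same receptors parted the same way in the odor pools, which share no array with the vehicle pools. With odor 86 members were called, 17 higher and 69 lower, against 20.9% of all tested probe sets (11% higher, 9.86% lower), and the median member difference was -1.36 beside -0.14 over all probe sets. The 86 were 74.1% of members, against 64.4% of the other Olfr genes and 58.1% of Olfr1159 to Olfr1318. The median differences of those receptor sets with odor were -0.52 and -0.21. In both treatments 16 members were called higher and 61 lower, 28 were called in neither and 0 were called in opposite directions. Of 116 members 107 had the same sign, and across members the vehicle and odor differences had r = 0.98 and rho = 0.96, a description over genes that share libraries within each treatment. In 8 of 8 pools 16 members were higher and 66 lower in the titled GFP+ library, against 11.9% and 15.1% of all probe sets. In pools numbered 1 and 2 alone 73 members were called in vehicle (11.3% of all probe sets) and 81 with odor (13.9% of all). In pools numbered 3 and 4 alone, a split chosen after seeing the data, 66 (9.38% of all) and 71 (8.96% of all) were called. The libraries of the sorts did not overlap for 78 members in vehicle, against 23.3% of all probe sets, and for 79 with odor, against 21.9%. Other receptors also often did not overlap. In vehicle this held for 626 of the 964 other Olfr genes and 78 of the 124 from Olfr1159 to Olfr1318. With odor it held for 560 and 64 of them.

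**Figure D1:**
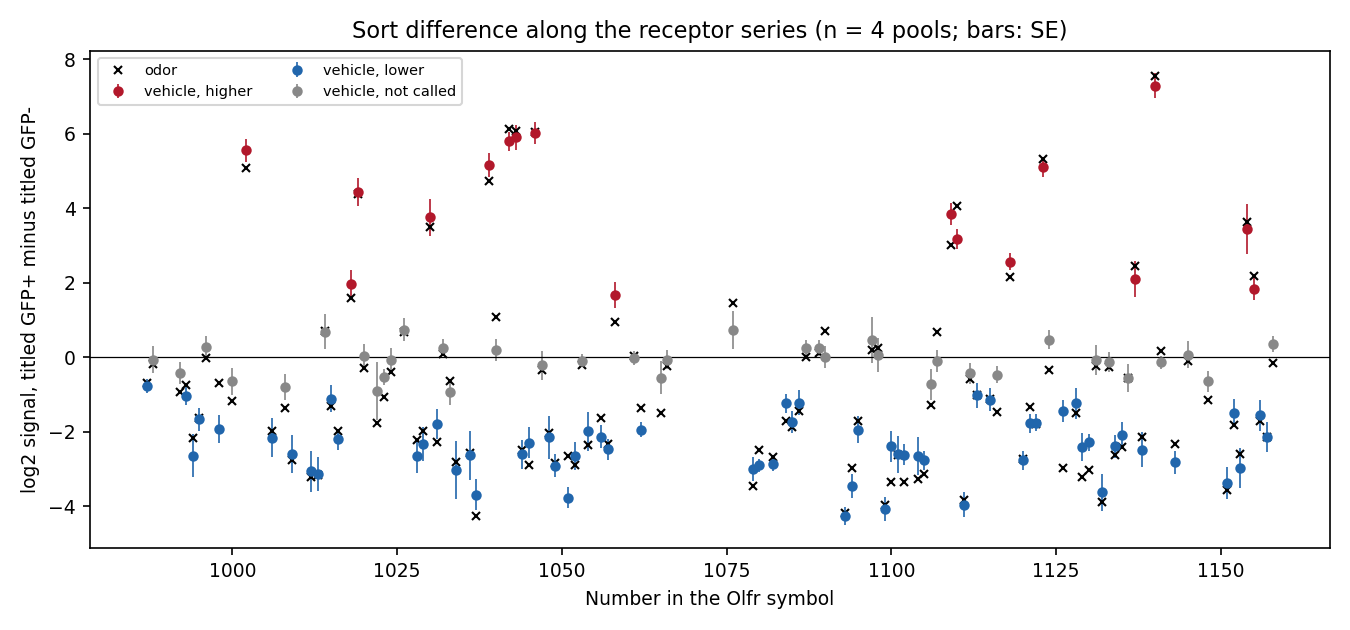
Sort difference (log2 signal, titled GFP+ minus titled GFP-) of 116 receptors against the number in the symbol. Circles with SE bars are vehicle, coloured by the limma call, and crosses are odor, each from 4 pools per sort; 17 vehicle circles are called higher, up to 7.29, and 62 lower, down to -4.25, and values of members not above background in a sort are fitted values.

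**Figure D2:**
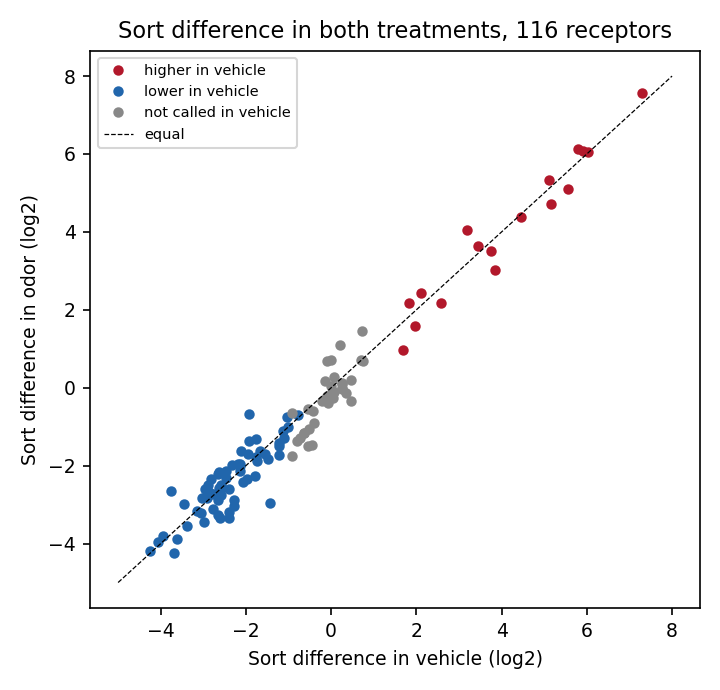
Sort difference with odor against sort difference in vehicle (both log2) for 116 receptors, each point 1 gene from 4 pools per sort and treatment, coloured by the vehicle call. The points follow the dashed line of equality (r = 0.98), and no member called higher in vehicle lies below 0 with odor; values are fitted, also where a sort was not above background.

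Olfr1140 was the member with the largest rise. Its log2 signal in the 4 vehicle libraries titled GFP+ was 13.21, 13.61, 12.47 and 13.32, and in those titled GFP- it was 6.39, 5.17, 6.29 and 5.63. The difference was 7.29 (SE 0.34, limma adjusted p = 9.69e-11), and it was 7.56 with odor (adjusted p = 5.96e-11). In titled GFP- the signal was close to background, above the median negative control in 3 of 4 vehicle libraries and 2 of 4 odor libraries, so little signal of this receptor was seen there.

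Olfr1046 read 12.67, 12.04, 12.23 and 12.86 in vehicle titled GFP+ and 5.99, 6.58, 7.07 and 6.04 in vehicle titled GFP-, which gives a sort difference of 6.03 (SE 0.30, limma adjusted p = 1.83e-10). Olfr1042 read 10.94, 10.74, 10.56 and 11.34 against 5.98, 4.65, 5.02 and 4.75, a difference of 5.80 (SE 0.26, adjusted p = 8.53e-11). For both, the lowest titled GFP+ library was far above the highest titled GFP- library. Olfr1042 was above background in 1 of 4 vehicle libraries titled GFP- and in 0 of 4 with odor, where it was at least 39.8-fold higher in titled GFP+. Olfr1043 read 11.28, 9.75, 11.25 and 11.26 against 5.27, 4.76, 4.74 and 5.15, with no vehicle library titled GFP- above background, and was at least 41.6-fold higher in titled GFP+ (measured difference 5.90, limma adjusted p = 8.69e-10). Olfr1002, earlier in the numbering, read 10.02, 9.61, 9.51 and 9.99 against 4.17, 3.73, 3.75 and 5.27 and was at least 19.4-fold higher in vehicle and at least 16.3-fold higher with odor. These bounds take the higher of the array's median negative control and the measured value in place of each dim reading.

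Olfr1123 and Olfr1019 were high in titled GFP+ while staying above the median negative control in titled GFP-. Olfr1123 in vehicle had a mean of 13.61 ± 0.15 (SD, n = 4) in titled GFP+ and of 8.50 ± 0.44 in titled GFP-, and differed by 5.11 (SE 0.28, limma adjusted p = 5.66e-10). Olfr1019, a receptor known to respond to the fox odor component trimethylthiazoline, read 12.62, 12.57, 13.60 and 13.12 in vehicle titled GFP+ and 8.02, 8.36, 8.15 and 9.61 in vehicle titled GFP-, which gives a sort difference of 4.44 (SE 0.38, adjusted p = 1.25e-07). All 16 libraries were above background for both receptors. The 95th percentile of the negative controls was 9.43 to 10.09 in vehicle libraries titled GFP-. The Olfr1123 mean and all but the highest Olfr1019 reading there lay below that range. The other named rises were Olfr1039 at 5.16, Olfr1109 at 3.85 and Olfr1030 at 3.76, each with groups that did not overlap. Olfr1110, Olfr1154, Olfr1118, Olfr1137, Olfr1018, Olfr1155 and Olfr1058 made up the rest of the 17 called higher in vehicle. Olfr1058 was called in vehicle (limma adjusted p = 0.00209) and not with odor (adjusted p = 0.0619). It was above background in 2 of 4 vehicle libraries titled GFP+ and in 0 of 4 titled GFP-, and its bound gives no fold. The member called higher with odor and not in vehicle was Olfr1040, one of those above background in no library.

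Among the members that were lower in titled GFP+, Olfr1093 differed most. It read 5.73, 5.22, 5.99 and 6.55 in vehicle titled GFP+ and 10.16, 9.87, 10.50 and 9.96 in vehicle titled GFP-, which gives a sort difference of -4.25 (SE 0.25, limma adjusted p = 1.39e-09), and with odor the difference was -4.18. All 8 titled GFP- libraries lay above all 8 titled GFP+ libraries. Olfr1099 read 9.15, 9.08, 8.78 and 9.43 against 12.94, 13.28, 12.99 and 13.51, a difference of -4.07 (SE 0.33, limma adjusted p = 6.45e-08). It was above the median negative control in both sorts. In titled GFP+ its readings lay within or below the range of the arrays' 95th percentiles of the negative controls (9.39 to 9.81). Olfr1111 read 7.35, 6.47, 7.94 and 7.77 against 11.11, 10.82, 11.77 and 11.65, a difference of -3.95 (SE 0.34, adjusted p = 1.45e-07). Olfr1111 follows directly after Olfr1109 and Olfr1110, which were higher in titled GFP+. The other named falls in vehicle were Olfr1051 at -3.77, Olfr1037 at -3.68, Olfr1132 at -3.62, Olfr1094 at -3.45, Olfr1151 at -3.37, Olfr1013 at -3.14 and Olfr1012 at -3.05, each lower in titled GFP+ with odor as well.

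The 5 members with the highest mean signal over the 16 arrays were Olfr1016, Olfr1143, Olfr1080, Olfr987 and Olfr988. Olfr1016 in vehicle had a mean of 12.42 ± 0.14 (SD, n = 4) in titled GFP+ and of 14.62 ± 0.25 in titled GFP-, and differed by -2.20 (SE 0.29, limma adjusted p = 1.89e-05). Olfr1143 differed by -2.82 and Olfr1080 by -2.90. Olfr987, at the start of the numbering, differed by -0.77 (adjusted p = 0.00924) and was the smallest called fall. Its neighbour Olfr988 was not called: it read 12.14, 11.61, 11.45 and 12.02 in vehicle titled GFP+ and 11.86, 11.00, 12.34 and 12.25 in vehicle titled GFP-, with overlapping libraries and a difference of -0.06 (SE 0.36, adjusted p = 0.931).

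Receptors that rose stood singly or in small groups among receptors that fell. In windows of 20 symbol numbers, Olfr1027 to Olfr1046 held 5 members called higher and 8 called lower in vehicle, of 16 measured. Olfr1107 to Olfr1126 held 4 higher and 7 lower of 15. Between Olfr1067 and Olfr1106 there was no member called higher: 6 of 7 were called lower in the first window and 9 of 15 in the second, whose median difference of -2.39 was the lowest of the 9 windows. The unbroken runs of at least 5 measured members called the same way were both of lower members, 6 from Olfr1079 to Olfr1086 (differences -2.99 to -1.22) and 6 from Olfr1099 to Olfr1105 (-4.07 to -2.39). In these runs Olfr1084 and Olfr1105 were above background in no vehicle library titled GFP+ and were at least 1.74-fold and 4.16-fold lower there.

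The stretch from Olfr1037 to Olfr1047 shows how sharply neighbours could part. Olfr1037 fell by 3.68 on the log2 scale and Olfr1039 was higher by 5.16. Olfr1042 and Olfr1043 were higher, Olfr1044 and Olfr1045 were lower, and Olfr1046 was higher again. Olfr1044 read 8.48, 8.48, 9.30 and 9.53 in vehicle titled GFP+ and 10.73, 10.98, 12.22 and 12.25 in vehicle titled GFP-, which gives a sort difference of -2.60 (SE 0.39, limma adjusted p = 7.86e-05), and Olfr1045 differed by -2.29 (SE 0.42, adjusted p = 0.000604). Olfr1040 was in no library above background, and Olfr1047 differed by -0.21 (SE 0.39, adjusted p = 0.758). With odor the differences were -4.25 for Olfr1037, 4.73 for Olfr1039, at least 5.31 for Olfr1042, 6.07 for Olfr1043, -2.50 for Olfr1044, -2.88 for Olfr1045 and 6.04 for Olfr1046. Olfr1040 was called higher with odor and not in vehicle (limma adjusted p = 0.0151 and 0.689), below background in both sorts.

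**Figure D3:**
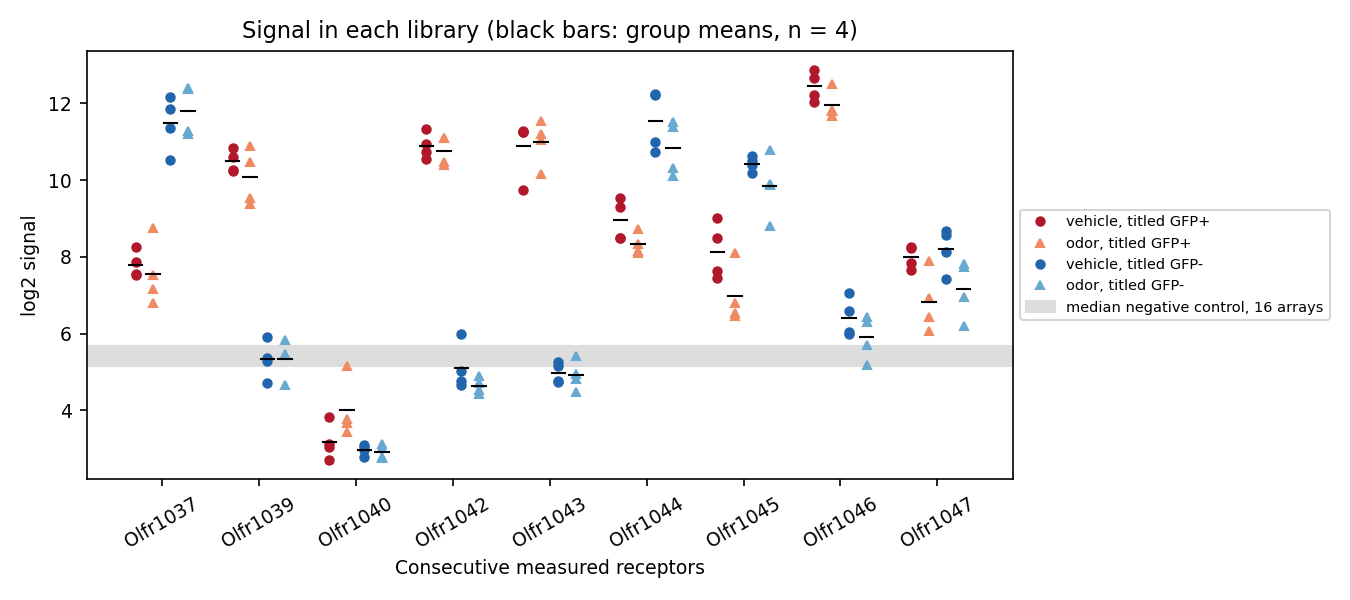
Deposited log2 signal in each of the 16 libraries for the consecutive measured receptors Olfr1037 to Olfr1047, with points for libraries, black bars for group means (n = 4) and a grey band for the range of the arrays' median negative controls. Red and orange points (titled GFP+) stand above blue ones (titled GFP-) for Olfr1039, Olfr1042, Olfr1043 and Olfr1046 and below them for Olfr1037, Olfr1044 and Olfr1045; levels of different receptors cannot be compared.

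Over the whole series of numbers, the median gap was somewhat smaller between adjacent receptors than over all pairs, and it did not grow steadily with distance. The share of pairs going the same way and the share within 0.5 did not fall steadily either. The median gap in vehicle sort difference between adjacent measured members was 1.63, against 1.92 over all pairs of members. It was 2.20 at 2 steps, 2.24 at 3, 1.77 at 5, 2.13 at 10, 2.47 at 20 and 2.30 at 50 steps. Among adjacent members 23.5% of pairs lay within 0.5 of each other, against 16.3% of all pairs. Of 55 adjacent pairs in which both were called, 40 went the same way (72.7%, against 65.8% of all such pairs): 36 both lower and 4 both higher, while 15 went opposite ways. That share was 56.9% at 2 steps, 65.3% at 3, 63.5% at 5, 72.3% at 10, 51.2% at 20 and 70.8% at 50. With odor it was 75.4% for adjacent pairs and 75% at 50 steps. Pairs within 0.5 with odor were 21.7% of adjacent pairs and 23.4% of those 5 steps apart. With odor the adjacent gap was 1.47 against 1.86 over all pairs, and in vehicle it was 1.68 against 1.97 for Olfr1159 to Olfr1318, the receptors that follow. With dim members at their bound the adjacent gap was 1.68 against 1.95 over all pairs in vehicle and 1.68 against 1.92 with odor. The deviations of 2 members from their group means over the 16 libraries were more alike for near pairs. Their median r was 0.23 at 1 step, 0.20 at 2, 0.16 at 3 and 0.15 at 5. It was 0.17 at 10, 0.14 at 20 and 0.05 at 50 steps, against 0.15 over all pairs. Pairs share members and libraries, and these values are descriptions with no test.

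**Figure D4:**
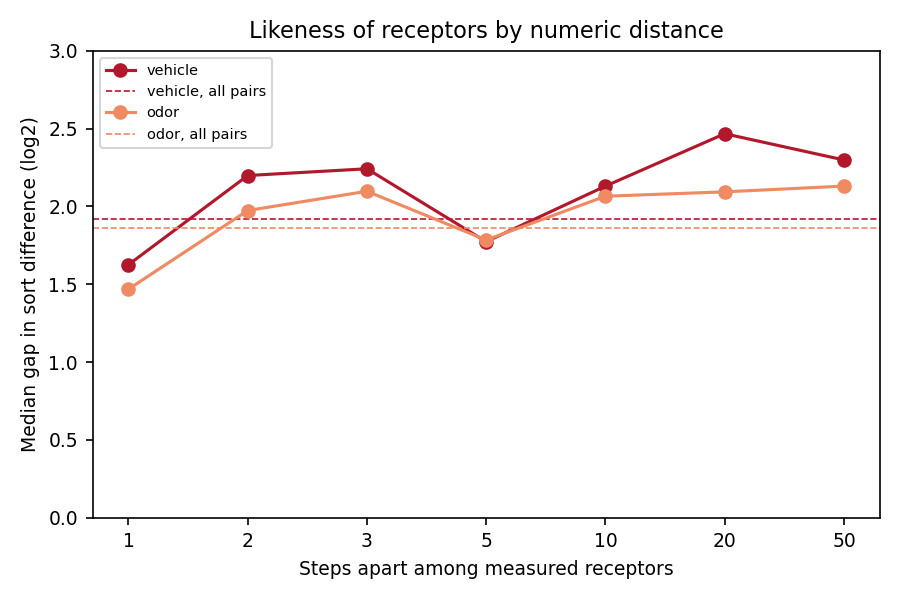
Median absolute gap in sort difference (log2) of fitted values between members 1 to 50 steps apart among the measured receptors, in vehicle (red) and odor (orange), with dashed lines for all pairs. Only adjacent members (1.63 and 1.47) and members 5 steps apart lie below the dashed lines at 1.92 and 1.86.

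Among adjacent pairs with at least 1 called member, the most alike fitted differences were those of Olfr1101 and Olfr1102 (-2.60 and -2.61), Olfr1121 and Olfr1122 (-1.77 and -1.76) and Olfr1080 and Olfr1082 (-2.90 and -2.87). Olfr1121 was above background in 0 of 4 vehicle libraries titled GFP+, so it was at least 2.67-fold lower there and the gap of its pair is not fixed. Equal sort differences did not mean that the libraries rose and fell together: the deviations from the group means over 16 libraries had r = -0.48 for Olfr1101 and Olfr1102, -0.17 for Olfr1121 and Olfr1122 and 0.82 for Olfr1080 and Olfr1082. The most unlike adjacent pairs were Olfr1138 and Olfr1140 (-2.47 and 7.29), Olfr1037 and Olfr1039 (-3.68 and 5.16) and Olfr1043 and Olfr1044 (5.90 and -2.60). With Olfr1043 at its bound the last pair was at least 7.97 apart, and Olfr1045 and Olfr1046 were then farther apart, by 8.32. Each unlike pair was about as far apart with odor, by 9.71, 8.98 and 8.57.

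No member was called as changed by isoamyl acetate. Within titled GFP+ 0 members passed an adjusted p of 0.05 (0.00901% of all probe sets did), and 16 had an unadjusted p below 0.05, which is 13.8% of members against 4.83% of all probe sets. Of these 5 were higher and 11 lower with odor, where 2.41% of all probe sets were lower. An unadjusted limma p below 0.05 was held by 7.78% of the other Olfr genes and 9.68% of Olfr1159 to Olfr1318. Within titled GFP- 0 members passed (0.018% of all probe sets), and 12 had an unadjusted p below 0.05, 6 in each direction, against 3.3% of all probe sets, 1.58% lower. There the share was 10.3% of members, 7.57% of the other Olfr genes and 13.7% of Olfr1159 to Olfr1318. For the interaction, which subtracts the vehicle sort difference from the odor one, 0 passed (0.0045% of all) and 7 had an unadjusted p below 0.05, 4 of them negative, against 2.94% of all probe sets, 1.23% negative. The interaction share was 6.03% of members, 5.08% of the other Olfr genes and 3.23% of Olfr1159 to Olfr1318. Odor and vehicle libraries did not overlap for 6 members in titled GFP+ (2.63% of all probe sets) and 6 in titled GFP- (2.07%). The median member difference with odor was -0.17 in titled GFP+ and -0.11 in titled GFP-. It was -0.19 and -0.09 over the other Olfr genes and -0.12 in both sorts over Olfr1159 to Olfr1318. Over all probe sets it was -0.0096 and -0.0011. The spread between pools within a group was wider for these receptors than for most genes, with a median SD of 0.53, close to 0.51 in the other Olfr genes and above 0.26 over all probe sets.

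**Figure D5:**
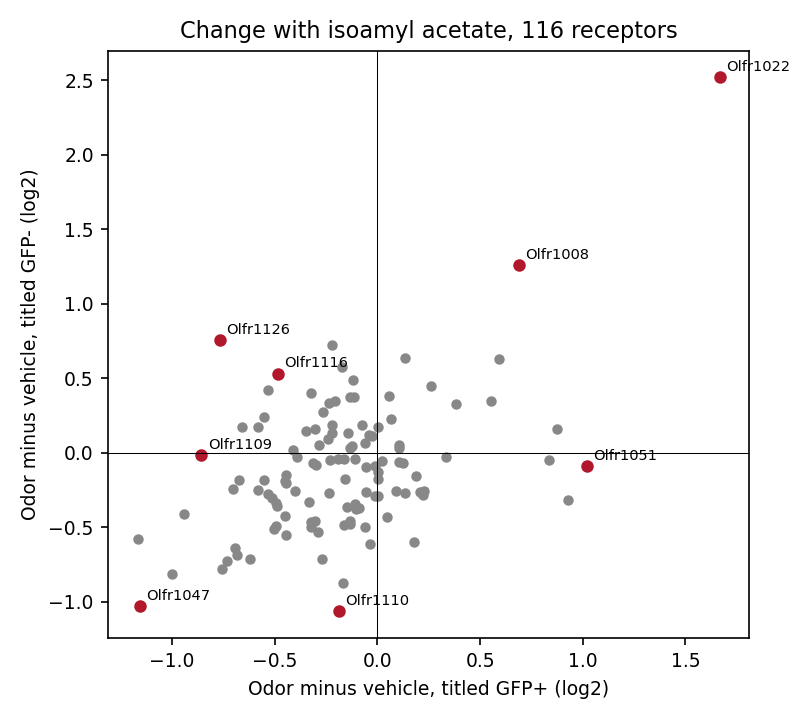
Odor minus vehicle (log2) in libraries titled GFP- against the same in libraries titled GFP+ for 116 receptors, each point 1 gene from 4 pools per treatment and sort. Red points are the receptors with the smallest unadjusted p in titled GFP+, in titled GFP- or in the interaction (Olfr1051 is in both of the lists for titled GFP+ and the interaction); none passes an adjusted p of 0.05.

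The receptors with the smallest unadjusted p are given as values. Olfr1110 in titled GFP- read 9.80, 10.15, 10.23 and 9.45 in vehicle and 9.57, 8.81, 8.51 and 8.48 with odor, a difference of -1.06 (SE 0.27, limma adjusted p = 1). One odor library lay among the vehicle libraries and the other 3 lay below them. Olfr1022 in titled GFP- read 5.61, 4.28, 7.80 and 4.28 in vehicle and 8.69, 6.54, 8.13 and 8.67 with odor, a difference of 2.52 (SE 0.78, limma adjusted p = 1). It was above background in 1 of 4 vehicle and 4 of 4 odor libraries titled GFP-, and the groups overlapped because a vehicle library read 7.80 and an odor library 6.54. Olfr1022 was among the most variable members, and in titled GFP+ it read 4.89, 4.13, 4.85 and 4.45 in vehicle and 5.45, 4.38, 7.85 and 7.31 with odor. Its sort difference with odor was -1.76 (limma adjusted p = 0.122), and with the pool as a block it was called (adjusted p = 0.0345).

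Olfr1008 in titled GFP- was above background in 0 of 4 vehicle and 3 of 4 odor libraries. Against the background its log2 difference with odor was at least 0.14 (limma adjusted p = 1 for the fitted values). In titled GFP+ the differences farthest beyond their error were those of Olfr1051 (1.02, SE 0.28), Olfr1109 (-0.86, SE 0.29) and Olfr1047 (-1.16, SE 0.39), each with a limma adjusted p of 0.968. Olfr1047 also differed by -1.03 in titled GFP- (limma adjusted p = 1), and its libraries overlapped between treatments in both sorts. The interaction was farthest from 0 beyond its error for Olfr1126. Its titled GFP- libraries read 9.61, 9.98, 9.62 and 9.19 in vehicle and 10.30, 10.62, 10.41 and 10.10 with odor, all 4 odor libraries above all 4 vehicle libraries, while titled GFP+ read 8.58, 8.22, 8.02 and 7.84 and 6.74, 8.44, 7.65 and 6.76. Its sort difference was -1.44 in vehicle and -2.96 with odor, an interaction of -1.52 (SE 0.43, limma adjusted p = 1). Olfr1116 (-1.02) and Olfr1051 (1.11) followed, also with adjusted p = 1.

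The genes that carry the receptors' signal differed between the sorts in part. Of 19 measured transduction genes 4 were called higher and 4 lower in titled GFP+ in vehicle and the same numbers with odor. Of all tested probe sets 17.3% were called in vehicle and 20.9% with odor. The 4 lower in vehicle were Ano2 (-0.45), Pde1c (-0.66), Slc24a4 (-0.58) and Slc8a1 (-0.99). Gnal, the alpha subunit of the olfactory G protein, differed by -0.10 (limma adjusted p = 0.652) and Cnga2, a subunit of the cyclic nucleotide-gated channel, by -0.03 (adjusted p = 0.896) in vehicle. Gnas, the alpha subunit of the stimulatory G protein found in many cell types, differed by 3.92 (adjusted p = 3.29e-09), and Rgs2, a regulator of G-protein signalling also found in immune cells, by 6.07 (adjusted p = 1.00e-08). Camk1d (0.68) and Grk3 were called higher too. Grk3 was above background in 2 of 4 vehicle libraries titled GFP+ and in 0 of 4 titled GFP-, and Rgs2 also in 0 of 4 titled GFP-. Of 4 receptor trafficking genes, which bring receptors to the cell surface, 0 were called, and Rtp1 differed by -0.10. Of 12 receptor choice genes 1 was called higher and 0 lower, and Lhx2 differed by -0.07 (adjusted p = 0.724). Of 2 dorsal and 6 ventral zone genes, which mark parts of the epithelium, 0 were called. The ventral gene Msx1 was above the median negative control in 0 of 16 libraries. None of the genes on these lists was called in the interaction or with odor in either sort.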

How the data were processed

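RNA of 16 libraries was measured on Clariom S arrays, with 50 to 100 ng of total RNA each (labels' protocols). The values that the authors deposited are log2 signals, 1 per probe set and array. The submitters' processing notes name Affymetrix Expression Console; the background correction and normalization used in it are not stated there. The values were used as deposited. Of 28846 probe sets 6640 controls were left out, and 22206 were tested, 19572 of them with 1 gene symbol, 2634 with none and 0 with several. No member had several probe sets. The number of arrays limits the precision.

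Groups came from the sample titles. limma (version 3.58.1, R 4.3.3) fitted 4 group means to all 16 arrays with eBayes (12 residual degrees of freedom, prior 4.495), and p-values were adjusted by Benjamini-Hochberg over 22206 probe sets, two-sided, with a threshold of 0.05. On simulated data with shifts of 1 and 2 in the vehicle sort difference, 84% and 100% of the changed probe sets were recovered. Among unchanged probe sets 12 were called. The changed probe sets were drawn from all tested ones, whose median SD within groups was 0.26, against 0.53 for the members. These shares therefore do not give the recovery for the members, which was not simulated. The members, lists and rules were chosen with earlier results of these data known.

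Named members follow a rule: the 5 with the highest mean, the 10 largest called rises and falls in vehicle without overlap, the 3 smallest p-values where fewer than 3 members were called, and, among adjacent pairs with at least 1 called member, the 3 most alike and the 3 most unlike; members named outside it, such as those in counts or along a described stretch, were chosen after their values were seen. Libraries of a pool come from the same mice, so the pool pairs them: deviations from the group means correlated by 0.17 to 0.295 in vehicle pools and 0.158 to 0.399 in odor pools. The main fit had no term for the pool, so its SEs and p-values do not use this pairing. A pool block was run as an alternative. Same-numbered vehicle and odor pools correlated by 0.174 to 0.278 in titled GFP+ and 0.0729 to 0.406 in titled GFP-. The limit of 0.1, set for every pair, was passed throughout in the first and not in the second. Differently numbered pools passed it too: in titled GFP+, vehicle pool 3 with odor pool 4 had 0.194 and vehicle pool 4 with odor pool 3 had 0.102. These values therefore do not show that the number itself pairs vehicle with odor libraries. Alternatives were quantile normalization, centring on the array median or on mature neuron markers, a filter on low values, eBayes with trend, a replicate block, each comparison's own arrays, leaving out each replicate, and, chosen after seeing the data, pools numbered 1 and 2 or 3 and 4 alone. Sequences are RefSeq's (GRCm38.p6).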

Additional observations from a re-analysis of the deposited data

Results flagged for a closer look

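Of 180 groups of 4 libraries tested, 3 held a library far from the other 3. Chance flags about 1 in 20 groups, a larger share than was found here. Olfr1043 read 9.75 in replicate 2 of vehicle titled GFP+ and 11.25 to 11.28 in the others. Olfr1116 read 9.17 in the same library and 10.01 to 10.04 in the others. Olfr1102 read 9.86 in replicate 2 of vehicle titled GFP- and 10.78 to 10.90 in the others.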

How the results depend on the processing

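Called members stayed within 1.5 times the reported numbers under every alternative run for the sort comparisons. Leaving out each replicate gave 70 to 76 calls in vehicle and 70 to 84 with odor, and medians of -1.16 to -1.10 and -1.49 to -1.26. With a replicate block (the pool for sorts, the replicate number for odor) 81 members were called in vehicle and 89 with odor, and 0 in the interaction and in both odor comparisons; among named members the block changed the call of Olfr1022 alone, which was then called in the odor sort (adjusted p = 0.0345). The median vehicle difference became -1.30 with quantile normalization, -1.49 with median centring, -0.89 with centring on mature neuron markers and -1.66 with the filter on low values, which kept 101 members. Median centring moved the median of all probe sets from -0.13 to -0.50 and mature neuron centring to 0.10; the member median stayed below it each time. With dim members at their bound, an alternative added after seeing the data, the medians were -0.97 in vehicle and -1.16 with odor and the adjacent gap in vehicle was 1.68. Pools numbered 3 and 4 alone gave an odor median of -0.94. The adjacent gap was 1.47 with odor, and the stricter background left 23, 38, 20 and 37 members. Calls with odor in titled GFP- ranged from 0 to 1 when a replicate was left out, the 1 being Olfr1121 without replicate 2 (-1.13, adjusted p = 0.0389).

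Directions reversed for values near 0 that were not called. Olfr988 differed by 0.17 in vehicle and 0.11 with odor under mature neuron centring, by -0.28 to 0.22 in vehicle and -0.52 to 0.086 with odor when a replicate was left out (above 0 without replicate 3 and replicate 4), and by 0.45 and 0.0765 in pools 1 and 2 alone. Olfr1047 differed by 0.018 in vehicle under mature neuron centring, and the S100a5 interaction was -0.15 to 0.071 when a replicate was left out (above 0 without replicate 1) and 0.099 in pools 3 and 4 alone. Over named genes and alternatives, 565 of 584 vehicle sort values and 564 of 584 odor sort values kept their direction and side of the threshold. The causes were not tested. Alternatives that need protein identity were not run.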

Other observations

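Some members varied together between pools. Over the 16 libraries, 103 of 6670 pairs of members had deviations from the group means that correlated above 0.8. Among the 115 adjacent pairs alone, 6 did. The highest was Olfr1034 with its neighbour Olfr1036 (r = 0.97), followed by Olfr1132 with Olfr1151 (r = 0.95), which are 12 steps apart. These pairs were chosen for their correlation, which is a description over libraries of shared pools.

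Olfr1034 read 11.65, 11.43, 13.43 and 13.23 in vehicle pools 1 to 4 titled GFP- and 12.08, 12.03, 13.34 and 13.68 in odor pools 1 to 4 titled GFP-. In titled GFP+ it read 9.46, 7.51, 10.41 and 10.25 in vehicle and 9.07, 8.02, 11.32 and 11.45 with odor. In each of the 4 groups the pools numbered 3 and 4 were above those numbered 1 and 2. Olfr1036 read 10.69, 10.30, 12.04 and 11.89 and 10.85, 10.69, 12.15 and 12.54 in titled GFP-, with the same split. The labels do not say what the numbers stand for. The sort difference of Olfr1034 in vehicle was -3.03 (SE 0.77, limma adjusted p = 0.0103).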
